A study of Mus musculus with 56 samples.

Results

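Klf3, Klf9, Klf10, Klf11, Klf13 and Klf15, 6 genes of the Kruppel-like factor family, were followed over the day in mouse liver under feeding restricted to the day (DRF) or, as the reference, to the night (NRF). The members were picked by name, by matching the gene identifiers of the expression table to GENCODE symbols, and they are 6 of the 25415 genes in that table. All 56 animals were 9-week-old C57BL/6J females kept on 12 h of light and 12 h of darkness, given normal chow freely for 7 days from 7 weeks of age, and then placed on DRF or NRF for 7 days. Time is given as zeitgeber time (ZT), counted in h from the start of the light phase. Each regimen has 28 libraries, from 4 animals at each of ZT0, 4, 8, 12, 16, 20 and 24. The clock hours at which food was given are not stated in the sources used here, no animal without a feeding restriction is among these libraries, and no animal was sampled at more than one time. The comparison between regimens asks whether a rhythm follows the time of feeding or the light-dark cycle.

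Kruppel-like factors are transcription factors whose carboxy-terminal zinc fingers bind GC-rich and CACCC sequences in promoters. Klf3 recruits CtBP corepressors, whereas Klf9, Klf10, Klf11, Klf13 and their relatives recruit the Sin3 and histone deacetylase complex. Klf9 is induced by glucocorticoids, the adrenal hormones that are themselves released in a daily rhythm. Klf10 was found as an early gene induced by TGF-beta and is known in liver as a glucose-responsive, clock-controlled repressor of gluconeogenesis, and Klf11 is its closest relative. Klf13 was first studied in T lymphocytes, where it drives expression of a chemokine. Klf15 is a fasting-induced activator of amino acid breakdown and gluconeogenesis in liver.

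On the mouse genome (GRCm38, GENCODE M21) all 6 are protein-coding genes. Klf3 lies on chromosome 5 at 64803388-64832901 and Klf15 on chromosome 6 at 90462576-90475238, both on the plus strand. Klf13 lies on chromosome 7 at 63886351-63938915 and Klf10 on chromosome 15 at 38291463-38300706, both on the minus strand. Klf11 lies on chromosome 12 at 24651274-24662789 and Klf9 on chromosome 19 at 23141226-23168134, both on the plus strand. A gene on the opposite strand, Gm20033, shares 404 exon bases with Klf3, which is 3.59% of its exon sequence, and no other member shares exon bases with another gene. The libraries were made strand-specific, but the strand setting of the counting is not given in the sources used here.

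Promoter windows of 250 bases before the RefSeq transcription start (GRCm38.p6) were read for 5 of the 6 members. They are GC-rich, with 78.4% G or C for Klf3, 76.8% for Klf11, 72.0% for Klf15, 71.6% for Klf13 and 59.6% for Klf9, against a median of 52.4% over 32851 promoter windows of the same length. The E-box CACGTG, the element read by the clock factors CLOCK and BMAL1, was found in the windows of Klf15 and Klf11 and in 6.02% of all windows. Klf15 held 2 matches, which start 228 and 172 bases before its RefSeq start, and Klf11 held 1, which starts 214 bases before. The cAMP element core TGACG, searched on both strands as were all motifs, was found in the windows of Klf15, Klf13 and Klf9 and in 17.8% of all windows. The GC box GGGCGG, which Kruppel-like factors can themselves bind, had 6 matches for Klf3, 4 for Klf11, 3 for Klf13, 1 for Klf15 and none for Klf9, and 32.7% of all windows held it. CACCC had 5 matches for Klf3, 1 each for Klf15, Klf13 and Klf9 and none for Klf11, and 52.0% of all windows held it. No window of the 5 held CACGTT (3.85% of all windows), the D-box TTANGTAA (2.06%), the ROR element TAGGTCA (2.23%), the glucocorticoid element ACANNNTGT (5.84%) or the full cAMP element TGACGTCA (1.55%). Klf15 and Klf11 are shown because they hold the E-box, and Klf9 because it varied most closely with Klf11 among the members while its window holds none. Each sequence runs 5′ to 3′ on the strand of the gene and stops before the annotated start of the gene, with CACGTG and TGACG in capitals on either strand.
Klf15, chr6:90462326-90462575, plus strand: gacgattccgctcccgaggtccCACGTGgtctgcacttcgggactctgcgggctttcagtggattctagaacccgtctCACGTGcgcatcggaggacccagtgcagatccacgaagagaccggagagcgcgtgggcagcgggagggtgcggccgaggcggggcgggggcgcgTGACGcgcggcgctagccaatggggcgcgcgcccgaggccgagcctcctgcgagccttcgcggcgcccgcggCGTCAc
Klf11, chr12:24651121-24651273, plus strand: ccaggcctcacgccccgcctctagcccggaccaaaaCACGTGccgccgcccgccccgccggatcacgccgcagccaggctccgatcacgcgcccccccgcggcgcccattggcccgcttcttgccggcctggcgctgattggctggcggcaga
Klf9, chr19:23140976-23141225, plus strand: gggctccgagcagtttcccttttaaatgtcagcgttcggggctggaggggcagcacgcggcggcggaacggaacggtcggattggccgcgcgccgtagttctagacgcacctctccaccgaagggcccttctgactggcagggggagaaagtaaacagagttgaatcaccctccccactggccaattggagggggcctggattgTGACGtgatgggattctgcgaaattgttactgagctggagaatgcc

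Levels are given as scaled counts, rebuilt from the deposited values, which are compressed logarithmically. One scaled count stands for 304 to 723 recovered counts, depending on the library, and the scaled counts of a library sum to between 889517 and 1117490. Recovered counts of the members ranged from 648 to 5202 for Klf11, 749 to 8267 for Klf10, 3805 to 26009 for Klf9, 7319 to 20497 for Klf3, 21922 to 78275 for Klf15 and 24411 to 185298 for Klf13. Recovered counts sum to 325 to 732 M per library, far above the average read number per sample that the paper on these data reports. They are therefore not a sequencing depth. What 1 recovered count stands for is not given in the sources used here, so no counting interval is printed. Libraries of the same group correlated across genes with r between 0.966 and 0.990 on the log2 scale. The hepatocyte list had 7 of its 8 genes in the table under the symbols used, with group means of the summed level between 114080 and 138860, of which albumin (Alb) made up the larger share. Summed marker levels of other cells varied between group means of 424 and 535 for sinusoidal endothelial cells, 689 and 1021 for Kupffer cells, 709 and 888 for stellate cells, 25.5 and 33.2 for cholangiocytes and 19.3 and 29.9 for lymphocytes. No marker was at 0 in any library. The rhythm differed between regimens in 5 of 8 endothelial, 4 of 6 cholangiocyte and 2 of 7 hepatocyte markers. It differed in 1 of 8 Kupffer, 1 of 8 stellate and 1 of 8 lymphocyte markers, and in 38.8% of all genes. The cholangiocyte calls included Krt7 and Cldn4, which averaged only 0.524 and 0.0339 scaled counts. The part of these markers in the results for the members was not tested. In whole liver, fewer cells of a type and less RNA per cell cannot be told apart.

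Per kilobase of exon, Klf15 and Klf13 were the most abundant members and Klf10 and Klf11 the least. Over the 28 DRF libraries the level per kilobase averaged 28.8 ± 5.13 (SD) scaled counts for Klf15, 18.0 ± 3.87 for Klf13, 6.94 ± 2.61 for Klf9, 2.20 ± 0.411 for Klf3, 1.32 ± 0.672 for Klf10 and 0.916 ± 0.598 for Klf11. Over the 28 NRF libraries it averaged 27.9 ± 6.83 for Klf15, 16.9 ± 8.84 for Klf13, 6.57 ± 2.83 for Klf9, 2.07 ± 0.405 for Klf3, 1.24 ± 0.672 for Klf10 and 0.851 ± 0.400 for Klf11. The order was the same under both regimens. Neighbours in this order overlapped in single libraries under both regimens, except for 2 pairs. Under DRF the lowest Klf13 library, at 13.2 per kilobase, lay above the highest Klf9 library, at 11.6, and under NRF the lowest Klf9 library, at 3.47, lay above the highest Klf3 library, at 2.98. The SD here includes the daily rhythm, and the Klf9 level rests on a length of 3263 bases, the one that returned whole counts, where the annotation has 4815.

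All 6 members were rhythmic under NRF, 4 of them were rhythmic under DRF, and the rhythm itself differed between regimens in all 6. With limma's moderated F test of a 24-h cosine on log2(scaled count + 1), adjusted by Benjamini-Hochberg over 25412 genes, the NRF rhythm had an adjusted p of 5.00e-11 for Klf13, 3.59e-10 for Klf9, 3.74e-07 for Klf3, 2.49e-05 for Klf15, 3.93e-04 for Klf10 and 5.74e-04 for Klf11. At the threshold of 0.05, 38.5% of all genes were called rhythmic under NRF. Under DRF the adjusted p was 8.90e-07 for Klf9, 2.21e-05 for Klf10, 2.27e-04 for Klf11 and 0.00232 for Klf3, while Klf13 (0.127) and Klf15 (0.345) did not pass. Under DRF 37.7% of all genes were called, and 22.1% were called under both regimens, as were Klf3, Klf9, Klf10 and Klf11. The joint test of a difference in rhythm over all 56 libraries gave an adjusted p of 4.10e-16 for Klf9, 4.68e-12 for Klf13, 1.09e-09 for Klf3, 4.75e-09 for Klf10, 6.82e-08 for Klf11 and 2.66e-04 for Klf15, and 38.8% of all genes were called by it. Members were chosen with such patterns known, so these shares give the background and no more. Klf13 passed under DRF when the library DRF ZT8 replicate 3 was left out (adjusted p = 0.0429), and both Klf13 (0.00550) and Klf15 (0.0316) passed on the values as deposited.

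**Figure D1:**
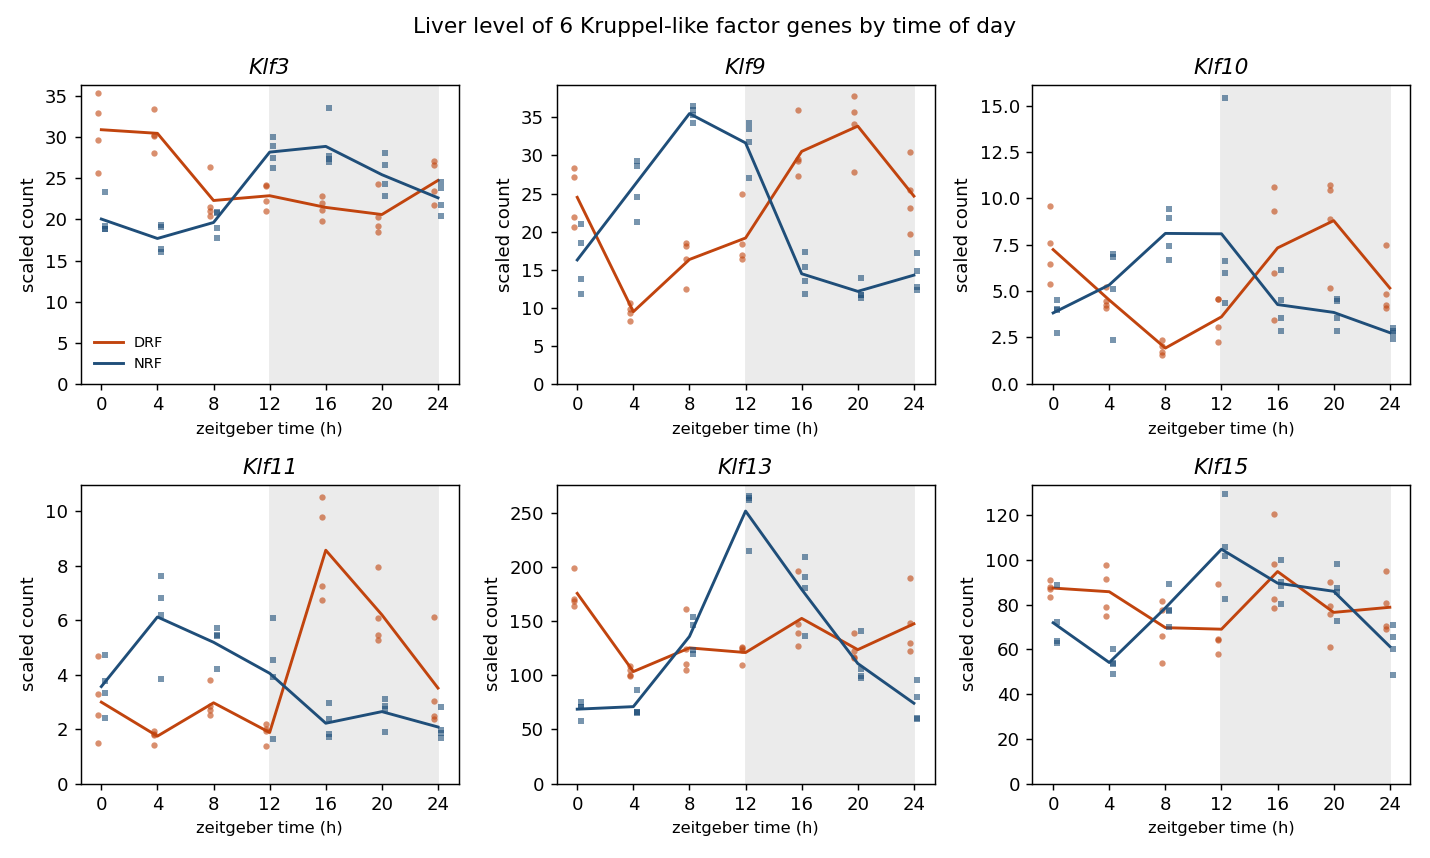
Scaled counts of the 6 members (vertical axis, from 0) by zeitgeber time in h (horizontal axis) in 56 libraries. Circles are DRF and squares NRF libraries, lines join the means of 4 libraries, and grey marks darkness. Klf9, Klf10 and Klf11 were high in the light phase under NRF and in the dark phase under DRF, and Klf13 under NRF reached a mean of 251 at ZT12.

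Klf9, the glucocorticoid-induced member, had the rhythm with the smallest adjusted p under DRF and moved from the late light phase to the dark phase. Under NRF its 4 libraries at ZT8 held 36.0, 36.5, 34.3 and 35.3 scaled counts, and those at ZT20 held 11.6, 11.7, 13.9 and 11.3. The NRF mean was 31.6 ± 3.25 (SD, n = 4) at ZT12 and 25.9 ± 3.74 at ZT4, and the means at ZT24, ZT16 and ZT0 were 14.3 ± 2.21, 14.5 ± 2.38 and 16.3 ± 4.26. Every ZT8 library lay above every other NRF library, the closest being 34.28 at ZT8 and 34.25 at ZT12.
Under DRF the order was turned. At ZT20 the DRF libraries held 35.8, 37.8, 34.1 and 27.8, and at ZT4 they held 8.26, 9.77, 9.25 and 10.6. DRF means were 30.5 ± 3.78 at ZT16, 24.7 ± 4.55 at ZT24 and 24.5 ± 3.85 at ZT0, and lower at ZT12 (19.2 ± 3.96) and ZT8 (16.3 ± 2.76). At ZT4 and ZT20 the regimens did not overlap, in opposite directions. The difference, DRF minus NRF on log2(scaled count + 1), was -1.35 ± 0.15 (SE, adjusted p = 2.37e-09) at ZT4 and 1.40 ± 0.15 (adjusted p = 1.25e-09) at ZT20. The highest mean was 3.58-fold the lowest under DRF and 2.92-fold under NRF.

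Klf11, a Sin3-recruiting repressor, was high at ZT16 and ZT20 under DRF and at ZT4 and ZT8 under NRF. Under DRF its libraries at ZT16 held 6.73, 7.26, 10.52 and 9.77 scaled counts, and those at ZT20 held 6.08, 7.96, 5.46 and 5.28. At ZT4 they held 1.41, 1.84, 1.79 and 1.92, and at ZT12 1.94, 1.37, 2.17 and 2.02. Every DRF library at ZT16 lay above every library at ZT0, ZT4, ZT8, ZT12 and ZT24, where the highest value was 6.12.
The NRF libraries were high at ZT4, with 6.80, 3.85, 7.62 and 6.19, and at ZT8, with 5.70, 5.41, 4.196 and 5.44. The lowest NRF mean was at ZT24, with 2.82, 1.67, 1.95 and 1.86, and the means at ZT16 and ZT20 were 2.21 ± 0.581 and 2.64 ± 0.521. Single libraries stood away from their group at ZT12 under NRF (1.64, 4.53, 6.10 and 3.92) and at ZT24 under DRF (6.12, 2.37, 3.04 and 2.498). At ZT16 the groups did not overlap, and the log2 difference was 1.57 ± 0.23 (adjusted p = 2.32e-06). At ZT4 they did not overlap either, and the difference had the other sign, at -1.35 ± 0.23 (adjusted p = 1.72e-05). At ZT12 it was -0.73 ± 0.23 (adjusted p = 0.0228), and this call was lost without DRF ZT12 replicate 2, NRF ZT12 replicate 2 or NRF ZT12 replicate 3 (adjusted p of 0.0811, 0.0790 and 0.134). At these low levels the added 1 makes the log2 difference smaller than that of the levels themselves: the highest DRF mean was 4.92-fold the lowest, and under NRF the ratio was 2.95.

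Klf10, the relative of Klf11 known as a repressor of gluconeogenesis, was high at ZT8 and ZT12 under NRF and at ZT16, ZT20 and ZT0 under DRF. At ZT4, where Klf11 differed between regimens, Klf10 had a log2 difference of -0.12 ± 0.27 (adjusted p = 0.822). Under NRF it held 7.44, 6.69, 9.41 and 8.92 scaled counts at ZT8 and 2.73, 3.005, 2.43 and 2.87 at ZT24. Under DRF it held 1.74, 2.04, 2.37 and 1.56 at ZT8 and 5.16, 8.89, 10.7 and 10.47 at ZT20. At ZT8 all DRF libraries lay below all NRF libraries, and at ZT20 all lay above, since the NRF libraries held 2.83, 4.47, 4.55 and 3.56. The log2 difference was -1.64 ± 0.27 (adjusted p = 2.18e-05) at ZT8 and 0.99 ± 0.27 (adjusted p = 0.00912) at ZT20. The ZT20 call was lost without replicate 2 (1.03, adjusted p = 0.0531) or replicate 4 (0.87, adjusted p = 0.103) of every group.
At ZT12 one NRF library stood apart, with 4.36, 6.62, 15.4 and 5.95. The DRF libraries at that time held 3.04, 4.57, 2.26 and 4.58, and the log2 difference of -0.88 ± 0.27 (adjusted p = 0.0211) became -0.55 (adjusted p = 0.182) without that NRF library, replicate 3. Without DRF ZT12 replicate 1 it was -0.83 (adjusted p = 0.0574) and without DRF ZT12 replicate 3 it was -0.72 (adjusted p = 0.101). The DRF group at ZT16 was also spread, at 3.42, 5.96, 10.6 and 9.30. Without the first of these, DRF ZT16 replicate 1, the difference at ZT16 went from 0.60 ± 0.27 (adjusted p = 0.137) to 0.87 (adjusted p = 0.0291). The highest mean was 4.57-fold the lowest under DRF and 2.94-fold under NRF.

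Klf3, the CtBP-recruiting member, was the 1 member that peaked in the light phase under DRF and in the dark phase under NRF. The DRF libraries held 25.6, 35.4, 32.9 and 29.7 scaled counts at ZT0 and 30.2, 33.4, 28.05 and 30.3 at ZT4. From ZT8 to ZT20 the DRF means lay between 20.6 and 22.9, and the libraries at ZT20 held 19.2, 18.5, 20.4 and 24.3. The NRF libraries held 18.8, 19.2, 23.4 and 18.8 at ZT0 and 19.3, 16.01, 19.0 and 16.4 at ZT4. At both times the regimens did not overlap, and the log2 difference was 0.60 ± 0.09 (adjusted p = 4.81e-06) at ZT0 and 0.75 ± 0.09 (adjusted p = 3.97e-08) at ZT4.
In the dark phase the difference had the other sign. At ZT16 the NRF libraries held 27.3, 27.7, 33.5 and 27.0, and the DRF libraries 22.0, 22.8, 19.8 and 21.2, with a log2 difference of -0.41 ± 0.09 (adjusted p = 0.00161). The differences at ZT12 (-0.29 ± 0.09, adjusted p = 0.0274) and ZT20 (-0.30 ± 0.09, adjusted p = 0.0264) passed as well. The first was lost without DRF ZT12 replicate 1 or 4 or NRF ZT12 replicate 1 or 2 (adjusted p of 0.0652 to 0.0987), and the second without DRF ZT20 replicate 1, 2 or 3 or NRF ZT20 replicate 2 or 3 (0.0565 to 0.112). The highest mean was 1.5-fold the lowest under DRF and 1.63-fold under NRF, so the Klf3 rhythm was shallow next to that of Klf9, Klf10 or Klf11.

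Klf13 swung widely under NRF and little under DRF. Under NRF its libraries held 75.7, 58.2, 70.2 and 70.4 scaled counts at ZT0 and 262, 215, 265 and 263 at ZT12. The NRF mean was 71.0 ± 10.1 at ZT4 and 136 ± 16.8 at ZT8, and after ZT12 it was 179 ± 31.2 (ZT16), 111 ± 20.5 (ZT20) and 74.1 ± 17.2 (ZT24). The 4 libraries at ZT12 lay above all other NRF libraries, the highest of which held 209, and the highest NRF mean was 3.66-fold the lowest.
Under DRF the libraries held 164, 199, 168 and 170.2 at ZT0 and 105, 100.1, 99.5 and 109 at ZT4. The DRF means of ZT12, ZT20 and ZT8 lay close together (121 ± 7.59, 124 ± 11 and 125 ± 25.5), those of ZT24 and ZT16 were 147 ± 30.1 and 152 ± 30.3, and the highest mean was 1.70-fold the lowest. ZT0 and ZT4 did not overlap under DRF although the 24-h cosine did not pass. The regimens were furthest apart at ZT0, where the log2 difference was 1.34 ± 0.15 (adjusted p = 2.13e-09), and at ZT12, where it was -1.05 ± 0.15 (adjusted p = 6.64e-07). At ZT24, again at lights on, it was 0.99 ± 0.15 (adjusted p = 2.16e-06), from DRF values of 148, 122, 189.5 and 129.6 against NRF values of 95.8, 80.0, 59.97 and 60.5.

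Klf15, the activator of amino acid breakdown, was, like Klf13, rhythmic under NRF and not called under DRF, with a smaller range. The NRF libraries held 60.1, 53.4, 53.8 and 49.0 scaled counts at ZT4 and 82.3, 129.5, 106 and 102 at ZT12. The NRF means of ZT16, ZT20 and ZT8 were 89.6 ± 7.92, 85.9 ± 10.3 and 78.5 ± 7.90, and those of ZT0 and ZT24 were 71.9 ± 12.2 and 61.3 ± 9.68. The highest NRF mean was 1.94-fold the lowest.
The DRF libraries held 88.1, 87.1, 91.1 and 83.3 at ZT0 and 79.1, 97.5, 74.9 and 91.5 at ZT4. Means of 69.7 ± 12.5 at ZT8 and 69.0 ± 13.7 at ZT12 followed, then a mean of 94.8 ± 19.0 at ZT16 from libraries of 120.4, 78.3, 82.5 and 98.0, and then 76.5 ± 11.9 at ZT20 and 78.8 ± 12.0 at ZT24. The DRF times with the highest and the lowest mean, ZT16 and ZT12, overlapped between libraries, with a ratio of 1.37. The regimens did not overlap at ZT4, with a log2 difference of 0.65 ± 0.15 (adjusted p = 7.50e-04), and at ZT12 the difference was -0.60 ± 0.15 (adjusted p = 0.00277), with DRF values of 64.7, 58.0, 89.1 and 64.1, of which 1 reached into the NRF range.

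Peak times were estimated with a least-squares cosine on the scaled counts in each regimen, and the shift between them is given with its SE and no test. Under NRF the peaks fell in the order Klf11 (6.75 h), Klf9 (8.42 h), Klf10 (9.63 h), Klf13 (13.1 h), Klf15 (14.5 h) and Klf3 (15.9 h). Under DRF Klf11 peaked at 17.6 h, Klf9 at 18.5 h, Klf10 at 19.7 h and Klf3 at 3.04 h, in the same order among these 4. The fitted DRF peaks of Klf13 (20.5 ± 1.62 h) and Klf15 (20.8 ± 2.38 h) come from cosines that did not pass the rhythm test.
The shift was 10.1 ± 0.448 h for Klf9 (95% interval 9.19 to 10.9 h), 10.1 ± 1.05 h for Klf10, 10.9 ± 0.869 h for Klf11 and 11.1 ± 0.950 h for Klf3. For the last 3 the interval starts at 8.06, 9.16 and 9.25 h and reaches 12 h, the largest shift that a 24-h cycle allows. For Klf13 the fitted shift was 7.39 ± 1.66 h and for Klf15 6.33 ± 2.46 h, with intervals of 4.14 to 10.6 h and 1.5 to 11.2 h. So 4 of 6 members were shifted by 8 h or more, taken here as an inverted phase, with a median of 10.1 h over all 6. These 4 are the members called rhythmic under both regimens. The median over all 6 includes Klf13 and Klf15, whose DRF cosines did not pass. Over the 5620 genes rhythmic under both regimens the median shift was 8.28 h, 52.3% were shifted by 8 h or more and 22.7% by less than 4 h. Without DRF ZT16 replicate 1 all 6 members were shifted by 8 h or more, with 8.58 h for Klf13 and 8.67 h for Klf15. On the values as deposited the shift was 8.88 h for Klf3, 5.43 h for Klf13 and 4.05 h for Klf15, and without replicate 2 of every group it was 4.40 h for Klf15.

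Amplitudes set the members apart in another way. Relative amplitude, the cosine amplitude divided by the rhythm-adjusted mean, was 0.501 under DRF and 0.554 under NRF for Klf9, 0.586 and 0.482 for Klf10, 0.726 and 0.507 for Klf11 and 0.178 and 0.243 for Klf3. For Klf13 it was 0.130 under DRF and 0.592 under NRF, and for Klf15 it was 0.0771 and 0.257. The difference in amplitude on the log2 scale, DRF minus NRF, was -0.72 for Klf13 (95% interval -0.91 to -0.52) and -0.27 for Klf15 (-0.45 to -0.09). The interval included 0 for Klf3 (-0.24 to 0.02), Klf9 (-0.26 to 0.17), Klf10 (-0.13 to 0.50) and Klf11 (-0.15 to 0.56). The Klf3 interval excluded 0 on the values as deposited (-0.27). It also excluded 0 after each library was rescaled by its median ratio to the gene means (-0.14). The Klf15 interval included 0 without replicate 4 of every group (-0.21). Among rhythmic genes the median relative amplitude was 0.209 under DRF and 0.254 under NRF.
The daily mean differed in none of the 6 members, while 6.82% of all genes passed that test. The difference in log2 daily mean, DRF minus NRF, was 0.10 for Klf13 (95% interval -0.04 to 0.23, adjusted p = 0.456), 0.05 for Klf3 (-0.04 to 0.14, adjusted p = 0.630) and 0.0045 for Klf15 (-0.12 to 0.13, adjusted p = 0.986). For Klf9 it was 0.01 (-0.13 to 0.16, adjusted p = 0.957), for Klf10 -0.06 (-0.28 to 0.15, adjusted p = 0.816) and for Klf11 -0.00064 (-0.23 to 0.23, adjusted p = 0.998).

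**Figure D2:**
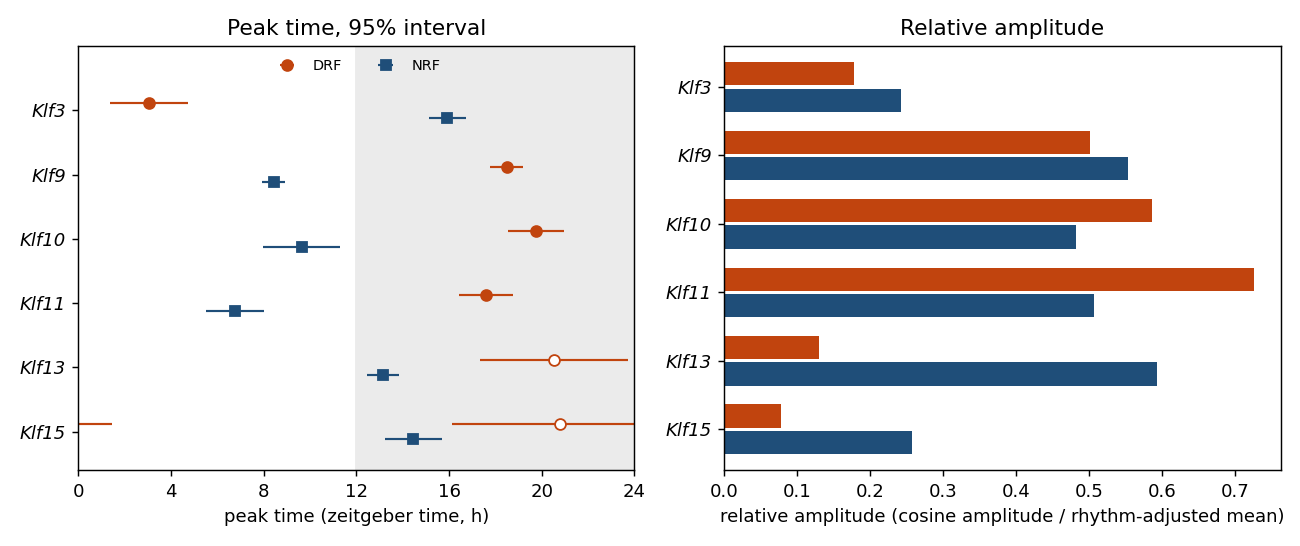
Left, peak time in zeitgeber hours with its 95% interval for each member (circles DRF, squares NRF, open symbols where the 24-h rhythm did not pass, grey for darkness). Right, relative amplitude as bars from 0, DRF above NRF. Klf9, Klf10, Klf11 and Klf3 have peaks about 10 to 11 h apart, and the DRF bars of Klf13 (0.130) and Klf15 (0.0771) are short.

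At the same zeitgeber time, 26 of the 42 member differences between regimens passed. At ZT12 all 6 members were lower under DRF, where 15.2% of all genes were called, with log2 differences from -0.29 for Klf3 to -1.05 for Klf13. On the values as deposited Klf3 (-0.20, adjusted p = 0.223) and Klf15 (-0.47, adjusted p = 0.0542) did not pass there. Without replicate 2 of every group Klf3 (adjusted p = 0.116), Klf10 (0.0528), Klf11 (0.189) and Klf15 (-0.41, 0.106) did not pass. Klf3 was also lost without replicate 1 (adjusted p = 0.147) or replicate 4 (0.119) of every group. Klf11 was lost without replicate 3 (adjusted p = 0.194) or replicate 4 (0.117), and Klf10 without replicate 3 (0.46). At ZT4 5 members passed against 20.4% of all genes: Klf3, Klf13 and Klf15 were higher and Klf9 and Klf11 lower under DRF. Klf13 did not pass at ZT4 without replicate 4 of every group (0.49, adjusted p = 0.0965). At ZT0 4 members passed against 16% of all genes, all of them higher under DRF (Klf3, Klf9, Klf10 and Klf13). Klf9 did not pass at ZT0 without replicate 3 of every group (0.50, adjusted p = 0.0755). The Klf10 value there, 0.76 ± 0.27 (adjusted p = 0.0479), lay at the threshold and was lost without any 1 of 31 of the 56 libraries, with an adjusted p of up to 0.161.
In the dark phase the signs parted by member. At ZT16 3 members passed against 15.2% of all genes, with Klf9 (1.03 ± 0.15, adjusted p = 1.51e-06) and Klf11 higher and Klf3 lower under DRF. At ZT20 4 members passed against 13.7%, with Klf9, Klf10 and Klf11 (0.98 ± 0.23, adjusted p = 0.00188) higher and Klf3 lower. At ZT8 2 members, Klf9 (-1.09 ± 0.15, adjusted p = 5.88e-07) and Klf10, passed against 13.0%, and Klf11 missed the threshold at -0.65 ± 0.23 (adjusted p = 0.0557). At ZT24 2 members, Klf9 (0.74 ± 0.15, adjusted p = 2.64e-04) and Klf13, passed against 14.1% of all genes.

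Setting DRF at one time against NRF 12 h later lines up the hours after lights on under DRF with the hours after lights off under NRF. Here 7 of 36 member differences passed, and 4 of them were in Klf13. These differences use the same 56 libraries as those at equal clock time. In the fit reported here Klf10 and Klf11 passed at none of the 6 matched times, though Klf11 passed at hour 0 without replicate 1 of every group (-0.73, adjusted p = 0.0146), and their intervals there reached from -1.27 to 0.93 and from -0.77 to 0.90 on the log2 scale.
At lights on for DRF and lights off for NRF, where the mean of ZT0 and ZT24 stands for lights on, Klf13 was lower under DRF by a log2 difference of -0.65 ± 0.13 (adjusted p = 7.18e-04), and 5.54% of all genes were called. This Klf13 call was lost without replicate 4 of every group (-0.59, adjusted p = 0.0512). At hour 4 Klf13 (-0.77 ± 0.15, adjusted p = 4.38e-04) and Klf9 (-0.55 ± 0.15, adjusted p = 0.00904) were lower under DRF, and 14.7% of all genes were called. Klf9 did not pass there without replicate 4 of every group (-0.52, adjusted p = 0.0531). At hour 8 no member passed against 11.6% of all genes, where Klf9 had 0.39 ± 0.15 (adjusted p = 0.0794) and Klf10 -0.72 ± 0.27 (adjusted p = 0.0761), and Klf9 passed without DRF ZT8 replicate 1 (0.51, adjusted p = 0.0354). Klf10 passed at hour 8 without NRF ZT12 replicate 3 (adjusted p = 0.0451), on the values as deposited (0.0367), with the length trend removed (0.0273), with a pseudocount of 0.1 (0.0427) and with a mean scaled count of at least 1 (0.0474). On the values as deposited Klf3 (0.00616) and Klf15 (0.0122) passed there too, and Klf15 also with the length trend removed (0.0417).
At the later matched hours the sign for Klf13 turned. At hour 12 Klf13 was higher under DRF by 0.77 ± 0.13 (adjusted p = 1.57e-04), and 4.69% of all genes were called. At hour 16 Klf13 (1.08 ± 0.15, adjusted p = 1.36e-06), Klf15 (0.78 ± 0.15, adjusted p = 1.48e-04) and Klf3 (0.27 ± 0.09, adjusted p = 0.0398) were higher under DRF against 17.3% of all genes. At hour 20 no member passed against 16.3% of all genes. The Klf3 value at hour 16 was lost without any 1 of 5 libraries (DRF ZT16 replicates 1, 2 and 4, and NRF ZT4 replicates 2 and 4), with an adjusted p between 0.0654 and 0.127. It was lost as well with the length trend removed (0.21, adjusted p = 0.133).

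**Figure D3:**
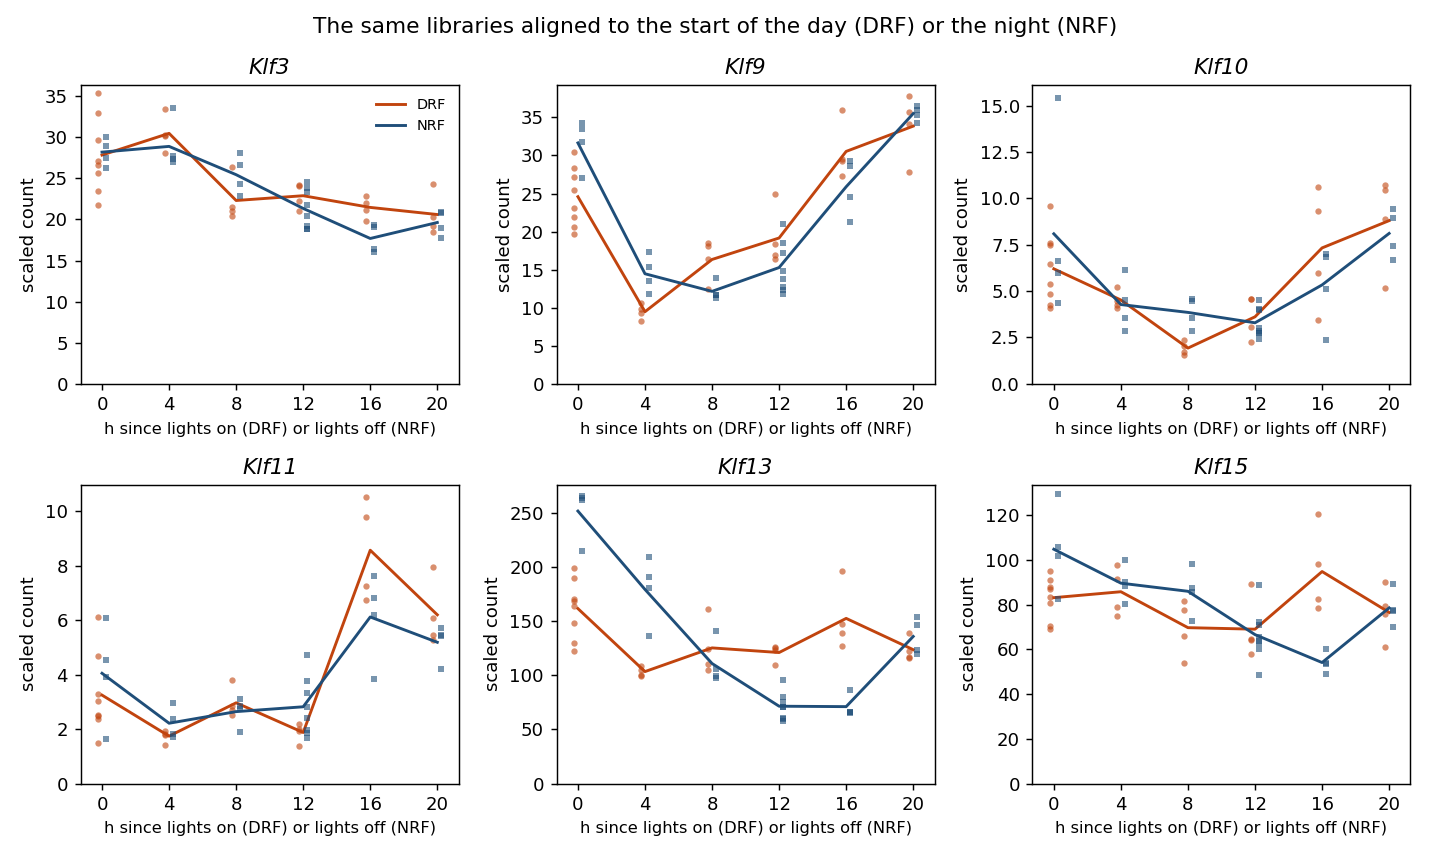
Scaled counts of the same 56 libraries (vertical axis, from 0) with DRF plotted by hours since lights on and NRF by hours since lights off (horizontal axis, h). Circles and squares are DRF and NRF libraries, lines join group means, and within a regimen the 8 libraries of ZT0 and ZT24 share 1 position. The courses of Klf13 cross, with the NRF mean at 251 at hour 0, and Klf9 at hour 4 and Klf10 at hour 8 have all DRF libraries below the NRF ones.

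**Figure D4:**
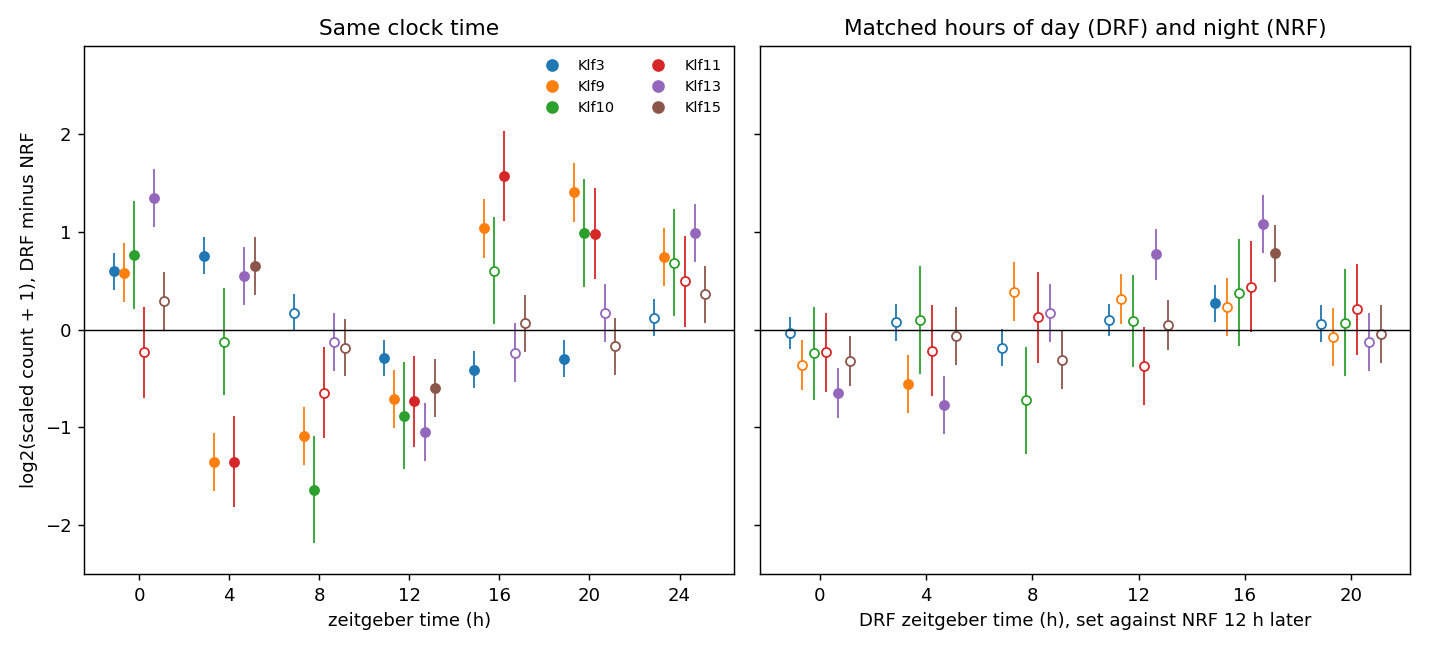
Log2 difference, DRF minus NRF, of scaled count + 1 (vertical axis) with 95% intervals for the 6 members. Left, at equal zeitgeber time; right, DRF against NRF 12 h later. Filled symbols passed an adjusted p of 0.05 in limma, 26 of 42 on the left and 7 of 36 on the right.

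A 12-h component beside the 24-h cosine passed in none of the members under either regimen, where 6.40% of all genes were called under DRF and 0.759% under NRF. Under DRF the smallest values were those of Klf9 (unadjusted p = 0.00527, adjusted p = 0.0668), Klf11 (0.00637, adjusted 0.0734) and Klf3 (0.00771, adjusted 0.0814). Klf15 followed (unadjusted p = 0.0247, adjusted p = 0.158). Under NRF the smallest value was that of Klf15 (unadjusted p = 0.0243, adjusted p = 0.342).
ZT24 was compared with ZT0 as 2 samplings of lights on. None of the 6 members passed under DRF, where 3.06% of all genes were called, or under NRF, where 7.82% were called. Klf3 under DRF came nearest at -0.31 ± 0.09 (unadjusted p = 0.00212, adjusted p = 0.0585), with 30.9 ± 4.22 at ZT0 and 24.8 ± 2.57 at ZT24. It passed without DRF ZT0 replicate 1 (-0.39, adjusted p = 0.0177). At an unchanged value it passed without DRF ZT8 replicate 3, DRF ZT20 replicate 4 or NRF ZT16 replicate 3. It also passed with the length trend removed (-0.38, adjusted p = 0.00524). With a mean scaled count of at least 1 its adjusted p was 0.0430, and with the replicate number as a block 0.0346. On the values as deposited Klf3 under DRF did not pass (-0.11, adjusted p = 0.604). There Klf3 (0.49, adjusted p = 3.74e-04) and Klf13 (0.52, adjusted p = 0.0248) passed under NRF. Klf11 under NRF was the other member with an unadjusted p under 0.05 (-0.56 ± 0.23, unadjusted p = 0.0198, adjusted p = 0.142). Without replicate 1 of every group it passed (-0.69, adjusted p = 0.0307). Across genes, the deviation of each library from the gene means was correlated with exon length (Spearman). That correlation ran from -0.20 to -0.06 at DRF ZT0 and from 0.11 to 0.25 at DRF ZT24. Under NRF it ran from -0.32 to 0.03 at ZT0 and from 0.06 to 0.26 at ZT24. It varied over the other times as well. Under DRF it ran from -0.30 to -0.15 at ZT4 and ZT8 and from -0.004 to 0.21 from ZT12 to ZT20. Under NRF the ranges over the same times were -0.23 to 0.17 and -0.10 to 0.30. Why it differed between these times was not tested.

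The transcript table held 22 of the 30 annotated transcripts of the members. Its values were used as deposited, so only their order is read, with no test. The scale factor fitted to the deposited gene values ran from 54861 to 61227 between libraries. Its part in the order of the transcripts between times was not tested. The main coding transcripts Klf9-201, Klf10-201 and Klf11-201 had their highest and lowest group means at the same times as their genes in both regimens: ZT20 against ZT4, ZT20 against ZT8 and ZT16 against ZT4 under DRF, and ZT8 against ZT20, ZT8 against ZT24 and ZT4 against ZT24 under NRF. In these transcripts the libraries of the highest and the lowest time did not overlap. Klf13-201 and the shorter coding Klf13-202 were both highest at ZT12 under NRF, and under DRF they were highest at ZT16 and ZT0, the 2 times with the highest gene means. Klf15-202, the Klf15 transcript with the highest values, was highest at ZT16 under both regimens, while the gene under NRF was highest at ZT12. Klf3-201 was highest at ZT4 under DRF, where the gene was highest at ZT0, and at ZT16 under NRF, as the gene was.

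Genes whose levels over the 56 libraries were most like those of each member were found by Pearson's r on log2(scaled count + 1) among 13754 genes with a mean scaled count of at least 1. All points share the library and its scale, and r is given as a description. For Klf3 these were Agpat1 (0.878), which acylates lysophosphatidic acid, Plekha8 (0.871) and the clock gene Per2 (0.858). For Klf9 they were Slc8b1 (0.927), a mitochondrial sodium-calcium exchanger, Fbxo21 (0.894) and Klhl24 (0.893). For Klf10 they were Gm28513 (0.785), Eva1a (0.762) and Rgs16 (0.756), a regulator of G protein signalling.
For Klf11 the closest genes were Fbxo32 (0.852), an atrophy-linked ubiquitin ligase subunit, Ocln (0.828), which encodes occludin, and the receptor gene Erbb3 (0.815). For Klf13 they were Syde2 (0.894), Mknk2 (0.892), a kinase of the translation factor eIF4E, and the clock gene Per1 (0.862). For Klf15 they were Dgat2 (0.793), which makes triglyceride, Etnk2 (0.783) and Foxo3 (0.748). No member was among the 3 closest genes of another.
Between members, r over 56 libraries was 0.720 for Klf9 and Klf11, 0.601 for Klf9 and Klf10 and 0.566 for Klf10 and Klf11. These 3 values were 0.746, 0.518 and 0.493 within DRF and 0.704, 0.695 and 0.679 within NRF. For Klf13 and Klf15 r was 0.706, for Klf3 and Klf15 0.598 and for Klf3 and Klf13 0.524, with 0.787, 0.745 and 0.658 within NRF and lower values of 0.523, 0.375 and 0.219 within DRF, where Klf13 was closer to Klf9 (0.565). Klf3 and Klf11 ran against each other (-0.566), within DRF (-0.623) and within NRF (-0.542).

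Other genes of the family and of the pathways around it were read from lists. Their examples are those with the smallest adjusted p of the rhythm difference, and Klf12, Rora, Nr3c1, Ctbp1, Ctbp2, Sin3b, Oat and Tat were named after their values were seen. Beside each count stand the shares over all genes, 37.7% rhythmic under DRF, 38.5% under NRF, 22.1% under both and 38.8% with a rhythm difference. Of 20 other KLF and SP family genes, 15 were in the table (Klf14, Klf17, Sp6, Sp7 and Sp8 were not), and 10 were rhythmic under DRF, 6 under NRF and 5 under both, with a rhythm difference in 11. Klf1, the erythroid member, had an adjusted p of the rhythm difference of 2.98e-13 and a DRF peak at 23.2 h and an NRF peak at 9.94 h. Klf16 followed with 4.93e-08 and peaks at 1.08 h and 9.80 h. The abundant Klf12, with a median of 109 scaled counts, was rhythmic under DRF (adjusted p = 0.00241) and did not pass under NRF (0.678).
Of 19 clock and clock output genes, 19 were rhythmic under DRF, 18 under NRF and 18 under both, with a median shift of 10.97 h and 8 h or more in 17 of the 18. A rhythm difference passed in 18, led by Nr1d2 (shift 11.03 ± 0.38 h), which encodes a heme-binding repressor of the clock, Dbp (10.2 ± 0.67 h) and Cry1 (10.46 ± 0.39 h). Rora, the exception, had an adjusted p of 0.0851. The 17 shifts ran from 10.2 h (Dbp) to 11.9 h (Per1), beside which Klf9 and Klf10 stood at 10.1 h, Klf11 at 10.9 h and Klf3 at 11.1 h.
For the glucocorticoid receptor and its induced genes, 7 of 11 were rhythmic under DRF, 9 under NRF and 5 under both, and the rhythm differed in 7. Of the 5 rhythmic under both, 3 were shifted by 8 h or more, Mt1 and Mt2 among them. Mt1 and Mt2, which encode metallothioneins, had shifts of 9.78 ± 0.87 h and 10.9 ± 0.90 h. The receptor gene Nr3c1 had an adjusted p of 0.310 for the rhythm difference. Of 12 KLF corepressor genes, 9 were rhythmic under DRF, 3 under NRF and 2 under both, and 3 differed in rhythm: Rcor1 (3.75e-06), Sin3a (2.97e-05) and Hdac2 (1.37e-04). Their relative amplitudes were 0.147, 0.144 and 0.0773 under DRF. The remaining 9, among them Ctbp1 (0.140), Ctbp2 (0.167) and Sin3b (0.0856), did not pass. The share of corepressor genes with a rhythm difference, 3 of 12, was below that of all genes.
Of 16 genes of amino acid breakdown and gluconeogenesis, 11 were rhythmic under DRF, 13 under NRF and 8 under both, and the rhythm differed in 15. The daily mean was higher under DRF in 11 of the 16 and lower in none, where 6.82% of all genes differed in daily mean in either direction. Pck1, the entry enzyme of gluconeogenesis, had its DRF peak at 20.3 h and its NRF peak at 11.2 h, and Ppargc1a, a coactivator of the pathway, at 21.3 h and 10.9 h. Of the list's enzymes Oat had the mean difference with the smallest adjusted p (0.71 on the log2 scale, adjusted p = 3.47e-09), and Tat, which breaks down tyrosine, was rhythmic under NRF (2.02e-06) and did not pass under DRF (0.370), as for Klf15 and Klf13.
Of 11 TGF-beta signalling genes, 6 were rhythmic under DRF, 7 under NRF and 3 under both, and 8 differed in rhythm, led by Skil (1.86e-09), which encodes a SMAD corepressor, with a shift of 9.80 ± 0.92 h, and Tgfb2 (6.17e-05).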

How the data were processed

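By the submitters' protocol, RNA of 56 livers was depleted of ribosomal RNA, made into strand-specific libraries and sequenced as read pairs. The molecule field of the sample labels names polyA RNA instead, and the protocol was followed here. The submitters' notes name CASAVA 1.8, featureCounts 1.5.0-p3 and the builds mm10 and GRCm38.p6; the aligner is not given in the sources used here. The gene and transcript values are called TPM by the authors but were treated as a deposited score, because each value times exon length followed a logarithm of a whole number in every library. That logarithm was undone to give scaled counts for 25412 of 25415 genes, and held-out genes came out whole, within 0.05, for 95.8 to 99.4% of values. Recovered counts summed to 325 to 732 M per library, far above the average read number that the paper reports, and are not a sequencing depth.

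limma 3.58.1 (R 4.3.3) was fitted to log2(scaled count + 1) over all 25412 genes, with a 24-h cosine or with the 14 group means, 4 libraries a group, and Benjamini-Hochberg adjustment; a minimum mean deposited value of 0.1 removed 0 genes. The added 1 makes a fold change smaller at low levels. Peak times came from least-squares cosines on the scaled counts, also fitted with limma in R, with delta-method SE. The scaled counts, lists and gene correlations came from Python 3.11.15 (numpy 2.4.6, scipy 1.17.1, pandas 2.3.3), and figures from matplotlib 3.10.9. Groups followed the labels, which do not say that replicates are separate cages or batches, so p-values measure the spread between these libraries. Replicate numbers did not pair the samples. The steps were tested on simulated data. Members, lists, tests and alternatives were chosen with earlier results of these data known. All 6 members and the 3 genes closest to each were named, with list examples by the smallest adjusted p of the rhythm difference. Circular RNA files were not used.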

Additional observations from a re-analysis of the deposited data

Results flagged for a closer look

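In 7 of the 84 groups of 4 libraries (6 members in 14 groups), 1 library stood apart from the other 3 by Dixon's test, and chance flags about 1 in 20 groups. For Klf3 these were NRF ZT0 replicate 3, at 23.4 scaled counts beside 18.8 to 19.2, and NRF ZT16 replicate 3, at 33.5 beside 27.0 to 27.7. For Klf9 it was NRF ZT20 replicate 3, at 13.9 beside 11.3 to 11.7. For Klf13 they were DRF ZT0 replicate 2, at 199 beside 164 to 170.2, DRF ZT12 replicate 4, at 109.6 beside 123 to 126, NRF ZT4 replicate 1, at 86.1 beside 65.3 to 66.2, and NRF ZT12 replicate 2, at 215 beside 262 to 265.

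The 24-h rhythm differed between DRF and NRF in every member by limma's joint test, with an adjusted p of 1.09e-09 for Klf3, 4.10e-16 for Klf9, 4.75e-09 for Klf10, 6.82e-08 for Klf11, 4.68e-12 for Klf13 and 0.000266 for Klf15.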

How the results depend on the processing

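No called result changed sign under any alternative run. The rhythm difference passed in 6 members and the daily mean in 0 members under every setting, replicate number and library left out, and NRF rhythm passed in 6. On the values as deposited, DRF rhythm passed in 6 members, matched-hour calls numbered 12, ZT24 against ZT0 calls 2, and 12-h calls under DRF 1 among members and 721 among all genes, with 47 under NRF (1626 and 193 on scaled counts). With the trend on gene length removed, 14478 genes were rhythmic under DRF and 8950 under both regimens (9585 and 5620 without it), and 1 member passed for 12 h under DRF and 1 for ZT24 against ZT0. With a mean scaled count of at least 1 these were 2 and 1, and without the ZT24 groups 2 members passed for 12 h. The cause was not tested.

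Replicate numbers did not pair the libraries (median r of same-number deviations 0.006, and 18 of 56 libraries correlated best with their own number). With the replicate number as a block, ZT24 against ZT0 gave 1 call, Klf3 under DRF (-0.31, adjusted p = 0.0346), and member counts of the other comparisons stayed within 1.5 times.

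Leaving out 1 replicate number at a time gave 332 to 847 genes and 0 to 1 members with a 12-h component under DRF, 33 to 60 genes under NRF, 3630 to 4049 genes rhythmic in both, 756 to 1371 with a difference in daily mean, 4 to 8 matched-hour calls, 20 to 24 calls at equal time and 0 to 1 for ZT24 against ZT0. Leaving out 1 library gave 23 to 27 calls at equal time, 6 to 8 at matched hours, 0 to 1 for ZT24 against ZT0, 4 to 5 members rhythmic under DRF and 4 to 6 shifted by 8 h or more, 5317 to 5930 genes rhythmic in both and 1435 to 1905 with a difference in daily mean. What counting error adds to the spread between animals at the low levels of Klf10 and Klf11 was not tested, since the unit of a recovered count is not given in the sources used here.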

Other observations

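A retained-intron transcript of Klf3, 1026 bases long, split the 56 libraries into separate ranges of the deposited score. In 10 libraries, 2 under DRF and 8 under NRF, it lay between 40.3 and 50.5, and in the other 46 it lay between 3.41 and 16.6. The DRF libraries of the high range were both from ZT0 (replicates 2 and 4), and the NRF libraries came from ZT0 (replicates 2, 3 and 4), ZT4 (replicate 3), ZT8 (replicates 3 and 4) and ZT20 (replicates 2 and 3). The coding transcript Klf3-201, 5221 bases long, had scores between 15.8 and 20.5 in all 56 libraries. Each score is compressed logarithmically and depends on transcript length. The width of this range therefore does not show how much Klf3-201 varied, and it cannot be compared with that of the shorter transcript.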
